A study of Mus musculus with 6 samples.

Results

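The α2δ and β subunits of voltage-gated calcium channels were described in mouse cortex at postnatal day 7 (P7). Their 8 genes, Cacna2d1 to Cacna2d4 and Cacnb1 to Cacnb4, were taken by gene symbol from a table of 24972 genes, and all 8 were in the table. Total RNA came from cortex of 3 wildtype and 3 Zmiz1-KO mice or pools, since the sources used here do not say whether a library was 1 animal. The sources differ on the material: the tissue and extraction labels and the paper's methods name cortex, while the treatment label speaks of progenitor cells isolated from it, so whole tissue is taken here from the former and was not settled by the labels. Values of a group are always listed in the order of replicates 1, 2 and 3. Wildtype was Zmiz1f/f and Zmiz1-KO was Zmiz1f/f;Emx1Cre, so both groups carried the floxed Zmiz1 alleles and no Cre-only control was analysed. Zmiz1 encodes a transcriptional co-regulator, and Emx1-driven Cre acts in cortical progenitors and the excitatory neurons and glia that come from them, but not in cortical interneurons, which are born elsewhere. The family was chosen by its normalized counts in these same 6 libraries, with results of this comparison already known, so every difference between the groups given below is a description of these libraries and no independent test of the family.

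A voltage-gated calcium channel is built around a pore-forming α1 subunit. The α2δ subunit is a largely extracellular protein anchored to the membrane, which raises the number of channels at the cell surface and at presynaptic terminals. The β subunit is a cytosolic protein that binds the α1 subunit between its first and second repeats and aids its transport and gating. In cortex these channels couple action potentials to transmitter release, and α2δ proteins also take part in the formation of synapses.

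The α2δ genes are paralogs of each other, and so are the β genes. The sequences of the 8 members were therefore compared first, to see whether a read could belong to more than 1 of them. No stretch of 75 bases of any member's transcripts was shared with another member. The longest run of coding sequence shared by a pair of α2δ genes was 17 bases, between Cacna2d3 and Cacna2d4, and the longest shared by a pair of β genes was 24 bases, between Cacnb1 and Cacnb2. The runs shared by the most similar β pair and by the α2δ pair whose values differed most between the groups are shown in capitals, with 15 bases of coding sequence on either side, read 5′ to 3′ on the coding strand from GENCODE transcripts on GRCm38.
Cacnb1: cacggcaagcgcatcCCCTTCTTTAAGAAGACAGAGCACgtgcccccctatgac
Cacnb2: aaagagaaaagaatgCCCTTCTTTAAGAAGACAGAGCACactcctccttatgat
Cacna2d1: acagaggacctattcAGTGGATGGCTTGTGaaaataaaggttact
Cacna2d3: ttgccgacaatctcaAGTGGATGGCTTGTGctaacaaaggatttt
The Cacnb1 and Cacnb2 runs each cross a splice junction, at chr11:98010368-98011357 on the minus strand and chr2:14968061-14971570 on the plus strand. The Cacna2d1 run of 15 bases lies within an exon at chr5:16312556-16312570 on the plus strand, and that of Cacna2d3 within an exon at chr14:29183572-29183586 on the minus strand. Opposite-strand genes overlapped 16.0% of the exon bases of Cacnb4 (A430018G15Rik) and 7.32% of those of Cacnb2. The library kit named in the labels does not mark strand, so reads in these parts cannot be told apart from those of the partner gene. For Cacnb1 and Cacna2d2 the overlap was 1.77% and 1.03%, and no annotated gene overlapped the exons of the other 4 members.

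The deposited table holds 1 normalized count per gene and library, made by the authors with DESeq2. The targeted gene did not check the labels in the usual direction. Normalized counts of Zmiz1 were 8119, 7929 and 7461 in wildtype but 9944, 9779 and 9660 under the Zmiz1-KO label, and a value per gene cannot tell transcripts that lack the floxed part from those that keep it. The study also measured Zmiz1 by qPCR, which is not analysed here. Because of the RNA-seq values the second group is named by its label throughout. Emx1, whose control drives Cre, averaged 763 ± 67.6 in wildtype against 529 ± 55.1 under the Zmiz1-KO label (SD, n = 3 per group). Each group held 1 library with high Xist. The sum of a library divided by the value that stands for 1 read gave about 15495006 to 17858811 counted reads per library. Groups were compared with limma on log2(normalized count + 1) over the 15800 genes with at least 10 normalized counts in at least 3 libraries, which all 8 members passed, with Benjamini-Hochberg adjustment over all of them. Of these genes, 65 had an adjusted p at or under 0.05, which is 0.411%, and in 16.3% every value of 1 group lay above every value of the other. Zmiz1 (log2 fold change 0.32, limma adjusted p = 0.00125) and Emx1 (-0.53, limma adjusted p = 0.0150) were among the 65. All 7 excitatory neuron markers were tested, and their summed level ranged from 38303 to 42558 in wildtype and from 38848 to 40344 in the other group, of which Slc17a7 was the largest part. Only 1 of the 7 had a log2 fold change above 0, but that of Slc17a7 was -5.5e-06. The median of the 7 was -0.10, and none passed the threshold with limma. The groups did not overlap for Neurod2 (-0.17, limma adjusted p = 0.241) and Bcl11b (0.15, limma adjusted p = 0.191), a pair named here only once its values were known. All 3 cerebellar markers stayed under 10 in every library.

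Of the 8 members, Cacna2d1 was lower and Cacna2d3 higher in the libraries labelled Zmiz1-KO, and the other 6 did not pass the threshold. Over all tested genes, 0.165% were called higher, 0.247% lower, and 0.671% passed an adjusted p of 0.1, at which the same 2 members were called. These were also the 2 of 8 members whose groups did not overlap, against 16.3% of all tested genes. The calls and the lack of overlap rest on the same values. The median absolute log2 fold change was 0.12 over the members, set by Cacnb2 and Cacna2d4, which were not called, and 0.07 over all tested genes. Because the family was chosen with these values known, the 2 medians do not show that it changed more than other genes. In RNA from whole tissue, a change in the number of cells that express a gene and a change in its RNA per cell cannot be told apart.

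**Figure D1:**
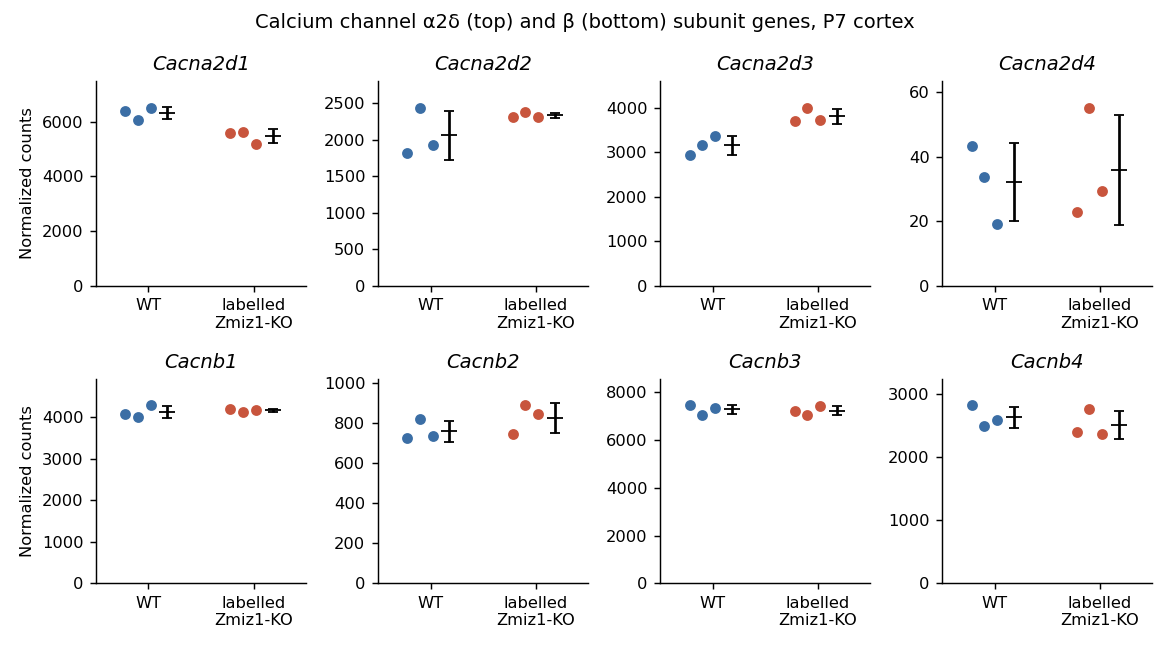
Normalized counts of the 4 α2δ genes (top) and the 4 β genes (bottom), each with its own axis from 0. Points are libraries, and bars are the mean and SD of 3. The Cacna2d1 points of the libraries labelled Zmiz1-KO lie below those of wildtype, the Cacna2d3 points lie above them, and the groups of the other genes overlap.

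Cacna2d1 encodes α2δ-1, the main target of the gabapentinoid drugs and a receptor for thrombospondins in the formation of excitatory synapses. It lies at chr5:15934691-16374511 of GRCm38. Wildtype Cacna2d1 measured 6393, 6083 and 6515 normalized counts, against 5585, 5645 and 5195 under the Zmiz1-KO label. The lowest wildtype library was thus above the highest of the other group, and the spread within each group was small. The mean fell from 6330 ± 223 to 5475 ± 244 (SD, n = 3 per group), or by 13.5%. The log2 fold change was -0.21 (standard error 0.044, 95% interval -0.30 to -0.12, limma adjusted p = 0.0478), just under the threshold. It passed in 2 of the 6 fits that left out a library, with limma adjusted p values of 0.0381 without wildtype replicate 2 and 0.0196 without replicate 2 labelled Zmiz1-KO, and of up to 0.366 without replicate 3 labelled Zmiz1-KO, and its log2 fold change stayed between -0.24 and -0.17. It did not pass with limma-voom (limma adjusted p = 0.0561), with upper-quartile scaling (0.0589) or without robust estimation (0.135).

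Cacna2d3 encodes α2δ-3, which lacks the gabapentin binding of α2δ-1 and is known for roles in hearing and in the processing of pain. It lies at chr14:28904943-29721864. Wildtype Cacna2d3 measured 2931, 3167 and 3355 normalized counts, against 3691, 3996 and 3718 under the Zmiz1-KO label. All 3 values of the second group were above the highest wildtype value. The mean rose from 3151 ± 212 to 3802 ± 169 (SD, n = 3 per group), or by 20.6%. The log2 fold change was 0.27 (standard error 0.052, 95% interval 0.16 to 0.38, limma adjusted p = 0.0305). With a library left out it passed in 2 of 6 fits, without wildtype replicate 3 and without replicate 2 labelled Zmiz1-KO, with limma adjusted p values up to 0.160 and log2 fold changes of 0.22 to 0.32, and without robust estimation it did not pass (limma adjusted p = 0.110).

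Cacna2d2 encodes α2δ-2, the other gabapentin-binding form, whose loss causes ataxia and absence seizures in the ducky mouse and which is abundant in cerebellar Purkinje cells and in inhibitory neurons. It lies at chr9:107399612-107529343. Wildtype Cacna2d2 measured 1820, 2440 and 1923 normalized counts, against 2317, 2378 and 2316 under the Zmiz1-KO label. Wildtype replicate 2 was the highest of all 6 libraries, while the other wildtype libraries were the lowest. The wildtype spread was therefore wide, with a mean of 2061 ± 333 (SD, n = 3), a coefficient of variation of 16.1%, against 2337 ± 35.5 (SD, n = 3), or 1.52%, in the other group. The log2 fold change was 0.19 (standard error 0.10, 95% interval -0.05 to 0.44, limma adjusted p = 0.566). Without wildtype replicate 2 it was 0.32 with a limma adjusted p of 0.0132, so that this library alone decided the call.

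Summed markers of some other cell types lay apart between the labels in the same libraries, while the sums of most lists overlapped. The summed level of 8 inhibitory neuron markers was 18244, 22579 and 20381 normalized counts in wildtype, against 23528, 25566 and 24080 under the Zmiz1-KO label. All 8 had a positive log2 fold change and none passed the threshold with limma, and none was at 0. The groups did not overlap for Slc32a1, Lhx6 and Sst but overlapped for Gad1, Gad2, Dlx1, Npy and Adarb2. Over all tested genes, 16.3% did not overlap. Wildtype replicate 2, the library highest in Cacna2d2, was the wildtype library with the highest sum, but its sum was below every sum of the other group. It was also the highest wildtype library for the oligodendrocyte lineage, astrocyte, endothelial, thalamic and choroid plexus sums. The 5 striatal neuron markers summed to 6960, 9431 and 9709 in wildtype, against 11102, 11359 and 10384 under the Zmiz1-KO label, with 5 of 5 log2 fold changes above 0, none past the threshold and none of the markers at 0. The 4 meningeal markers summed to 7376 to 8541 in wildtype and to 9618 to 10144 in the other group, and 1 of them passed the threshold. For the inhibitory, striatal and meningeal lists, as for Cacna2d3, the lowest library was wildtype replicate 1 and the highest was replicate 2 labelled Zmiz1-KO. The 6 oligodendrocyte lineage markers went the other way, with sums of 12180 to 13808 in wildtype against 11317 to 11766, none past the threshold and none of the markers at 0. Of 5 astrocyte markers, 1 was called lower, and their sums overlapped, at 34258 to 35973 in wildtype and 32549 to 34477 in the other group. Choroid plexus markers varied most between libraries, from 293 to 8198 in wildtype and from 288 to 4774 in the other group. The part of these differences in the values of Cacna2d1, Cacna2d2 and Cacna2d3 was not tested.

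Cacna2d4, at chr6:119236526-119352407, encodes α2δ-4, a subunit of photoreceptor channels in the retina. It was near the limit of detection, with 43.4, 33.8 and 19.2 normalized counts in wildtype, against 22.9, 55.2 and 29.3 in the other group. These values stand for about 9 to 30 reads per library, which gives a counting error of 18.2 to 32.7% for a single library. Its log2 fold change of 0.13 had a standard error of 0.37 and a 95% interval from -0.66 to 0.92 (limma adjusted p = 0.940), so the data show neither a difference nor its absence. The coefficients of variation between libraries, 37.8% in wildtype and 47.8% in the other group, were above that counting error. For the other 7 members the counting error was between 1.61% and 5.29%.

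The opposite differences of Cacna2d1 and Cacna2d3 were joined in their ratio, which is taken within a library. A scaling factor shared by all genes of a library cancels in it, but a factor that differs between genes does not. Most high values were not close to whole multiples of the value of 1 read, so a single factor per library was not shown. The ratio of Cacna2d1 to Cacna2d3 normalized counts was 2.18, 1.92 and 1.94 in wildtype, against 1.51, 1.41 and 1.40 under the Zmiz1-KO label. The mean was 2.01 ± 0.144 in wildtype and 1.44 ± 0.0629 in the other group (SD, n = 3 per group), so that it fell by 28.5%, and the groups did not overlap. On the log2 scale the difference was -0.48. The ratio of Cacna2d1 to Cacna2d2 did not overlap either, but narrowly, with 2.49 in wildtype replicate 2 against at most 2.41 in the libraries labelled Zmiz1-KO. The ratio of Cacna2d2 to Cacna2d3 overlapped, at 0.655 ± 0.103 in wildtype and 0.615 ± 0.0176 in the other group (SD, n = 3 per group). The sum of the 4 α2δ genes, each divided by its exon length, was 1134 ± 43.0 normalized counts per kb in wildtype against 1175 ± 39.9 under the Zmiz1-KO label (SD, n = 3 per group), with overlapping groups. The composition of the α2δ class thus differed more between the groups than its sum, which the opposite signs of the selected pair entail.

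**Figure D2:**
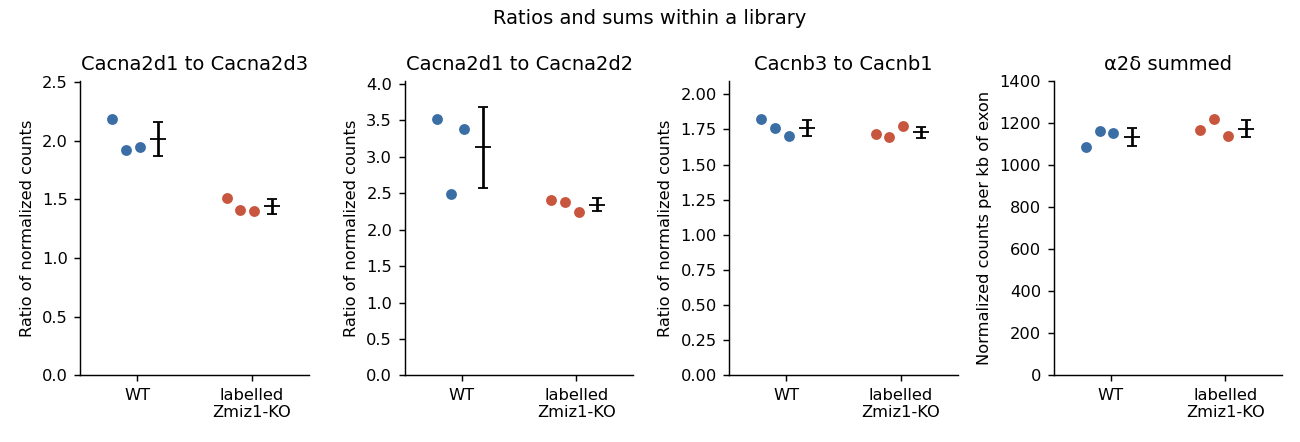
Ratios of normalized counts within a library for 3 pairs of genes, and the summed α2δ level per kb of exon, for wildtype and the libraries labelled Zmiz1-KO. Points are libraries and bars are the mean and SD of 3. The Cacna2d1 to Cacna2d3 ratio is 1.92 to 2.18 in wildtype and 1.40 to 1.51 in the other group, while the Cacnb3 to Cacnb1 ratio and the summed α2δ level overlap.

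None of the 4 β subunit genes passed the threshold with limma or with limma-voom, and none had an unadjusted p under 0.05 with limma. Cacnb3, at chr15:98630840-98644529, encodes β3, which is abundant in forebrain neurons. It had 7430, 7047 and 7316 normalized counts in wildtype, against 7205, 7023 and 7398 in the other group. These values interleaved, and the log2 fold change was -0.01 (standard error 0.039, 95% interval -0.09 to 0.07, limma adjusted p = 0.951). Cacnb1, at chr11:98001508-98023034, encodes β1, which is required by the calcium channel of skeletal muscle and is also present in brain. Its values were 4079, 4003 and 4287 in wildtype and 4202, 4136 and 4172 in the other group, with a log2 fold change of 0.02 (95% interval -0.07 to 0.11, limma adjusted p = 0.928). For these genes the intervals, which are not adjusted for the number of genes, held no change as large as that of Cacna2d1 or Cacna2d3.

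The remaining β genes were measured less precisely. Cacnb4, at chr2:52428320-52676831, encodes β4, whose loss causes the ataxia and seizures of the lethargic mouse. It had 2822, 2491 and 2593 normalized counts in wildtype, against 2398, 2761 and 2369 under the Zmiz1-KO label, where replicate 2 lay within the wildtype values. Its log2 fold change was -0.07 (95% interval -0.21 to 0.06, limma adjusted p = 0.744). Cacnb2, at chr2:14603088-14987908, encodes β2, the main β subunit of heart muscle, and had 726, 819 and 734 normalized counts in wildtype and 746, 888 and 844 in the other group. Its log2 fold change was 0.12 (95% interval -0.05 to 0.29, limma adjusted p = 0.628). The interval of Cacnb2 holds a rise as large as that of Cacna2d3, so its result does not show that the gene was stable. Within a library the ratio of Cacnb3 to Cacnb1 was 1.76 ± 0.0575 in wildtype and 1.73 ± 0.0395 in the other group (SD, n = 3 per group), and the summed β level was 3073 ± 80.0 and 3061 ± 29.3 normalized counts per kb of exon.

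**Figure D3:**
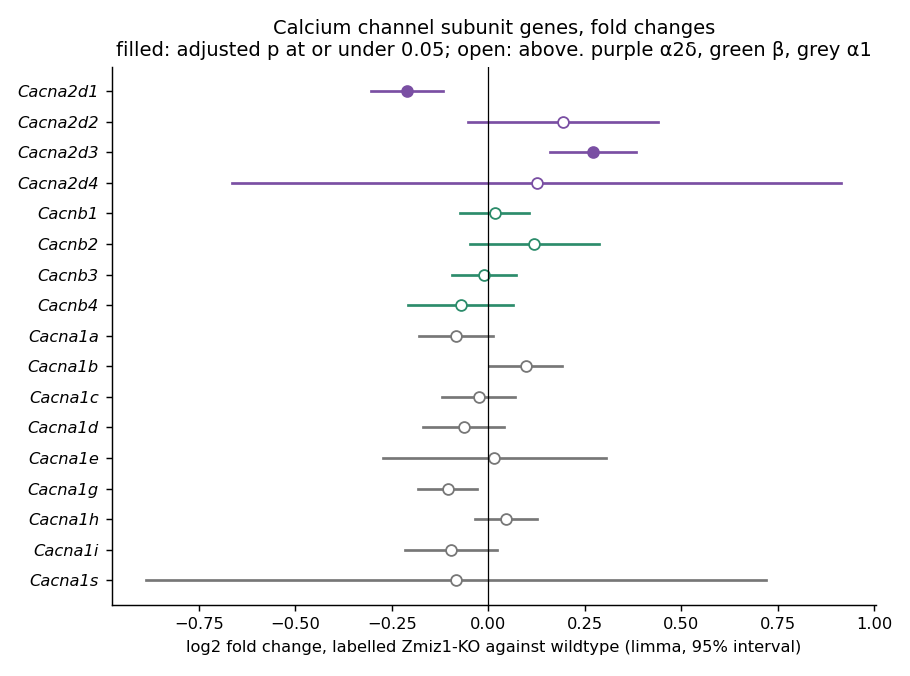
Log2 fold changes between the libraries labelled Zmiz1-KO and wildtype (x axis, limma) with 95% intervals for the 8 members and the 9 tested α1 genes (y axis). Filled points, Cacna2d1 and Cacna2d3, had an adjusted p at or under 0.05. The widest intervals are those of the low genes Cacna2d4 and Cacna1s.

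Levels of different genes were compared as normalized counts per kb of annotated exon in wildtype, since long transcripts give more reads. Cacnb3 had the highest level of the 8 genes, 1812 ± 49.0 per kb (SD, n = 3), followed by Cacnb1 with 910 ± 32.5, Cacna2d1 with 510 ± 17.9, Cacna2d3 with 361 ± 24.3, Cacnb4 with 294 ± 18.9, Cacna2d2 with 259 ± 41.8, Cacnb2 with 57.4 ± 3.91 and Cacna2d4 with 3.39 ± 1.28. The ranges of neighbours in this order did not overlap over the wildtype libraries, except those of Cacnb4 and Cacna2d2. Within its class, Cacnb3 made up 58.9% ± 0.386 of the β level per length (SD, n = 3) and Cacnb1 29.6% ± 0.771. Cacna2d1 made up 45.0% ± 2.72 of the α2δ level per length in wildtype against 37.5% ± 0.927 under the Zmiz1-KO label, and Cacna2d3 31.9% ± 1.31 and 37.1% ± 0.731 (SD, n = 3 per group).

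The order of Cacna2d1 and Cacna2d3 depended on the length used. With the longest annotated transcript in place of all exon bases, their wildtype levels overlapped, at 851 ± 29.9 and 853 ± 57.5 per kb (SD, n = 3), and with the mean length of coding transcripts they were 1447 ± 50.9 and 1366 ± 92.0 and overlapped as well. With the mean coding length Cacnb2 moved from the seventh to the fifth place, at 417 ± 28.4 per kb (SD, n = 3), overlapping Cacna2d2 at 397 ± 64.1, and its wildtype share of the β level went from 1.87% to 7.68%, while the α2δ share of Cacna2d2 went from 22.8% to 12.3%. Cacnb3 and Cacnb1 kept the highest levels, and Cacna2d4 the lowest, under the 3 lengths tried. The wildtype share of Cacnb3 in its class was 61.2% and 51.9% under the other 2 lengths. Under each length the share of Cacna2d1 was lower, and that of Cacna2d3 higher, in the libraries labelled Zmiz1-KO.

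**Figure D4:**
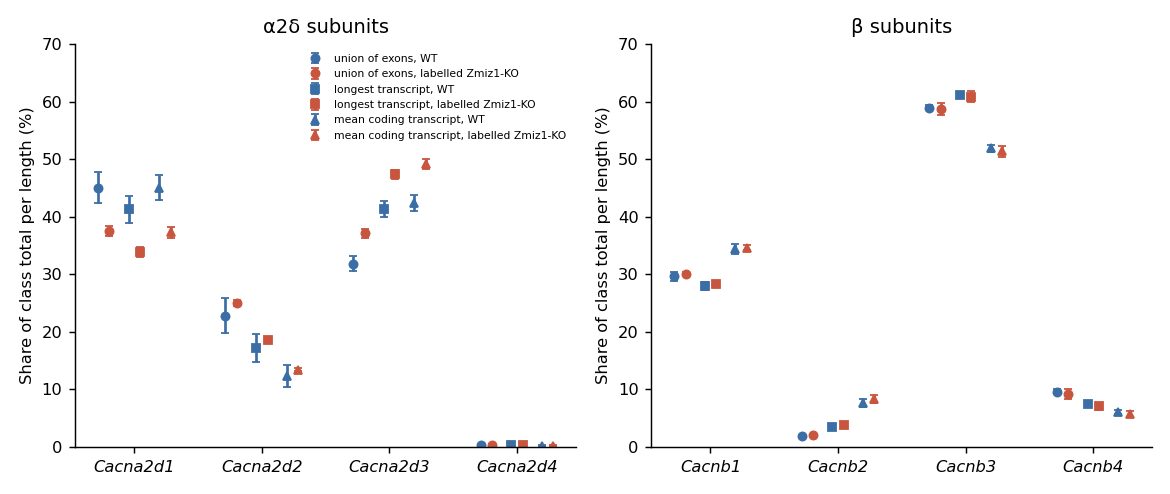
Share of each gene in the summed level per length of its class (y axis, percent), for 3 definitions of gene length, in wildtype and in the libraries labelled Zmiz1-KO. Markers are means and bars the SD of 3 libraries. Shares of Cacna2d1 and Cacna2d3 differ between the groups under each length, and those of the β genes lie close together.

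The partners of these subunits were taken as 5 lists of 45 genes in all, of which 43 passed the filter on low values. None of the 43 had an adjusted p at or under 0.05 with limma or limma-voom, and 6 had an unadjusted p under 0.05 with limma and 7 with limma-voom. With limma, 11.0% of all tested genes had such a p. In 9 of the 43 the groups did not overlap, against 16.3% of all tested genes. Their median log2 fold change was 0.00, as was that of all tested genes. Among the α1 pore subunits, 9 of 10 were tested, with log2 fold changes between -0.11 and 0.10. Cacna1b, the N-type channel of presynaptic terminals, had the highest level of them, 1538 ± 111 normalized counts per kb of exon in wildtype (SD, n = 3), and its log2 fold change was 0.10 (limma adjusted p = 0.439). The genes of the P/Q-type channel, Cacna1a (-0.08), of the L-type channels, Cacna1c (-0.02) and Cacna1d (-0.06), and of the R-type channel, Cacna1e (0.02), had limma adjusted p values of 0.533 to 0.981. Of the T-type genes, which do not need these auxiliary subunits to reach the membrane, Cacna1g had 9133 ± 166 normalized counts in wildtype against 8490 ± 78.2 under the Zmiz1-KO label (SD, n = 3 per group). Its groups did not overlap, and its log2 fold change was -0.11 (limma adjusted p = 0.275). The log2 fold changes of Cacna1h and Cacna1i were 0.05 and -0.10. The groups of Cacna1h did not overlap either, with higher values under the Zmiz1-KO label (limma adjusted p = 0.726). Groups thus lay apart in 2 of the 9 tested α1 genes, in opposite directions, against 16.3% of all tested genes. The skeletal muscle gene Cacna1s had 28.9 ± 10.6 normalized counts and the retinal gene Cacna1f, which was not tested, 4.83 ± 2.45 (SD, n = 3) in wildtype. The ratio of the summed α2δ level to the summed level of the high-voltage-activated α1 genes, both per kb of exon, was 0.401 ± 0.0139 in wildtype and 0.407 ± 0.00533 in the other group, and that of the summed β level was 1.09 ± 0.0376 and 1.06 ± 0.0377 (SD, n = 3 per group).

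Among 13 genes for proteins reported to bind α2δ subunits or related to them, 12 were tested and none passed the threshold with limma. Thbs4 and Thbs2, thrombospondins of the extracellular matrix, had the largest log2 fold changes, -0.58 and 0.26, with limma adjusted p values of 0.436 and 0.240. Thbs4 was low, with 45.1 ± 4.52 normalized counts in wildtype against 29.8 ± 2.95 under the Zmiz1-KO label (SD, n = 3 per group). Of the 8 γ subunit genes, several of which encode auxiliary proteins of AMPA receptors, Cacng1 (-0.32) and Cacng6 (0.27) had the largest log2 fold changes, at wildtype means of 35.4 ± 13.8 and 29.5 ± 8.63 normalized counts (SD, n = 3), with limma adjusted p values of 0.888 and 0.815. Of the 6 genes for small GTPases and active zone proteins that bind β subunits, Rem1 (0.40) and Rem2 (0.12) had the largest log2 fold changes, with limma adjusted p values of 0.855 and 0.639. Among the 8 genes for calmodulins, the calmodulin-like Cabp1, Rimbp2 and the Stac proteins, which bind α1 subunits, these were Stac3 (-0.46) and Stac2 (0.18), with limma adjusted p values of 0.504 and 0.418.

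The genes whose values over the 6 libraries were most like those of Cacna2d1 and Cacna2d3 were taken from the 9130 tested genes with a mean of at least 500 normalized counts. Usp48, Washc2, Hecw1, Slc39a14 and Agtpbp1 had Pearson correlations of 0.984 to 0.995 with Cacna2d1 on the log2 scale, and Fmod, Mrps17, Gfm2, Gsdme and Mrpl52 had correlations of 0.981 to 0.993 with Cacna2d3. The points share their 2 groups and their libraries, and 53 genes had a correlation over 0.95 with Cacna2d1 and 49 with Cacna2d3. Of the 10 genes named, Washc2 was lower (log2 fold change -0.30, limma adjusted p = 0.0159) and Fmod higher (0.41, limma adjusted p = 0.0437) in the libraries labelled Zmiz1-KO. Over all tested genes 0.411% were called. The 10 were chosen for values like those of 2 called genes, which entails their direction, so they lend those calls no support.

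**Figure D5:**
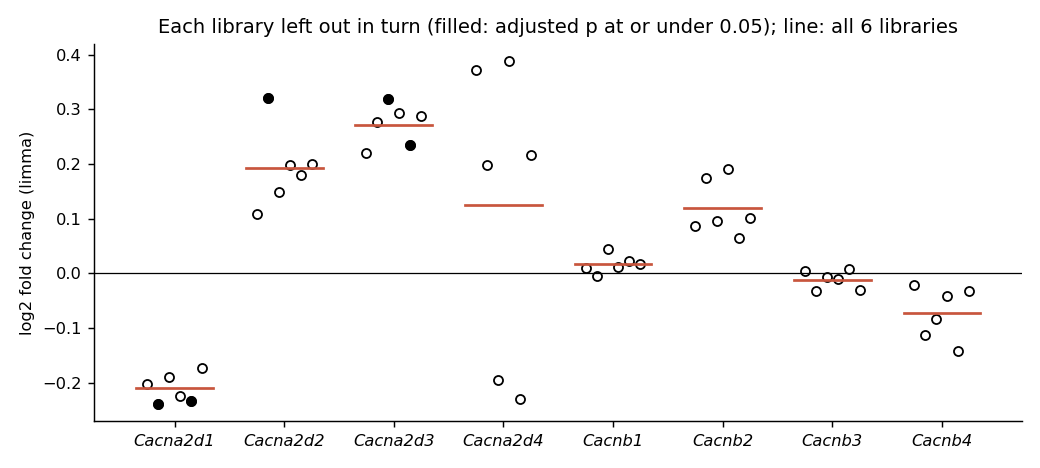
Log2 fold change of each member (y axis, limma) with each of the 6 libraries left out in turn (points) and with all libraries (line). Filled points had an adjusted p at or under 0.05. Cacna2d1 stays below 0 and Cacna2d3 and Cacna2d2 above it, while Cacna2d4 lies on either side of 0.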

How the data were processed

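Total RNA of P7 cortex was sequenced in 3 wildtype and 3 Zmiz1-KO libraries. The authors aligned reads to mm10 with STAR and normalized counts per gene with DESeq2, and the deposited table gives these values as normalized signal, written here as normalized counts. Tool versions and the annotation are not given in the sources used here. Of the low values of a library, 90.4 to 92.3% lay within 0.1 of a whole multiple of the value of 1 read, but only 19.8 to 20.4% of the high values did, so whole reads were not recovered and no count model was fitted. Columns were assigned to libraries by genotype and sample number.

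Values were analysed as log2(value + 1) in limma 3.58.1 under R 4.3.3, using an intensity trend, robust estimation and no covariate, keeping genes that reached 10 in 3 or more libraries. P values were two-sided. The procedure was tested on simulated data whose changes were all larger than those of Cacna2d1 and Cacna2d3, so that test does not cover changes of their size. An exact permutation test of 3 libraries against 3 cannot give a p below 0.1. Nothing in the labels says that libraries are separate animals, so p values measure the spread between these libraries. The spread of each gene was moderated by limma toward that of genes of like level. A p value thus does not rest on the gene's own 6 values alone. Gene positions, lengths and overlaps came from GENCODE on GRCm38, the assembly of mm10, and all members matched by symbol. Intervals and counting errors cover these 6 libraries and read counting only.

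The members, partner lists, marker lists and tests were chosen with earlier results of these data known. Named genes are the members, Zmiz1, Emx1, the α1 genes, the 2 largest changes of each other partner list and the 5 genes most like Cacna2d1 and Cacna2d3. Some markers of excitatory and inhibitory neurons are named as well. Alternatives were limma-voom, 3 scalings (median ratio, upper quartile and trimmed mean of M values, computed from their published formulas), other pseudocounts and filters, non-robust estimation, a block for replicate number, an adjusted p of 0.1 and each library left out. Microglia, endothelial, mural, thalamic, muscle and blood marker sums, with none of their markers past the threshold, overlapped between the groups.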

Additional observations from a re-analysis of the deposited data

How the results depend on the processing

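The number of genes past the threshold, 65 in the fit reported, was 17 without robust estimation, 106 at an adjusted p of 0.1 and 168 with a replicate block. It ran from 12 to 152 with each library left out, the highest being without replicate 2 labelled Zmiz1-KO and the lowest without replicate 3 of that group. Of the members, 2 passed in the fit reported, 1 with limma-voom and 1 with upper-quartile scaling (Cacna2d3 in both), 0 without robust estimation, and 0 to 2 with each library left out, of which 0 held without wildtype replicate 1 and without replicates 1 or 3 labelled Zmiz1-KO. Without robust estimation no member had an adjusted p below 0.110 (limma). With the replicate block, 2 members passed, the same as without it. The labels give no litter or batch, so whether the numbers pair the libraries is not known. Correlations of deviations over all tested genes showed no pairing by number. They do not settle the question, and the block raised the number of genes past the threshold from 65 to 168. Same-numbered libraries had correlations of -0.01, -0.11 and -0.01 between their deviations, and libraries of unlike number -0.10 to 0.11. The difference of the log2 ratio of Cacna2d1 to Cacna2d3, -0.48, stayed between -0.52 and -0.42 with each library left out. With each library left out, the log2 fold change ran from -0.23 to 0.39 for Cacna2d4, from -0.0042 to 0.045 for Cacnb1 and from -0.033 to 0.0076 for Cacnb3, and so changed sign, which it did for no other member. Cacna2d4 rests on about 9 to 30 reads per library.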
